A study of Mus musculus with 6 samples.

Results

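The genes described here were 40 interferon-stimulated genes, taken as the rows of the deposited RNA-seq count table whose gene symbol stood on a list of such genes. All 40 were among the 52323 genes of that table, and all 40 were among the 19135 genes with enough counts to be tested. They were measured in damaged hepatocytes (dHeps), cells obtained by in situ collagenase perfusion of livers injured with carbon tetrachloride (CCl4), a hepatotoxin that was given for 12 weeks. The donors of every group were AAV-TBG-Cre:Rosa-LSL-tdTomato mice on a C57BL/6 background, aged 8 to 10 weeks when they received the virus, in which Cre under the liver-specific TBG promoter marks hepatocytes with tdTomato. The dHeps were then cultured in serum-free Hepatocyte Maintenance Medium (Lonza) to day 16 with the solvent DMSO, with a cocktail of 3 compounds (3C) or with a cocktail of 5 compounds (5C). The 3C cocktail held 50 µM CID755673, a protein kinase D inhibitor, 2 µM GSK429286A, a ROCK inhibitor, and ETC-1002 at 5 µM, which blocks ATP citrate lyase. Salidroside at 5 µM and forskolin at 2 µM, which raises cyclic AMP through adenylate cyclase, were added to these in 5C. There were 2 libraries per group, named D1 and D2 for DMSO, and values for 3C and 5C are given in the order replicate 1, replicate 2. Whether the libraries of a group stem from different mice or separate cultures is not in the labels, so p-values measure only the spread between these libraries, which may be technical. The methods describe a filtered cell suspension that was plated on collagen, and they name no sort of the cells before plating. The paper reports that this isolation enriched hepatocyte-derived cells, judged by the share of isolated cells that were tdTomato-positive.

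Interferon-stimulated genes are the transcripts that a cell makes when interferon binds to its surface. Type I interferons act through the receptor chains IFNAR1 and IFNAR2 and the kinases JAK1 and TYK2 on a complex that holds STAT2 and IRF9 and binds the interferon-stimulated response element (ISRE) in promoters. Interferon gamma acts through IFNGR1 and IFNGR2, and its promoter element is the gamma-activated sequence (GAS). The products detect foreign nucleic acid, block viral replication or limit the signal itself, and hepatocytes as well as liver macrophages can mount the response.

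The comparison of the libraries asked how the cocktails changed these genes, and it had to be read library by library because the controls differed. The 40 genes were higher in D2 than in D1 without exception, and D2 was the highest of the 6 libraries for 37 of them. Among all genes tested, 49.3% were higher in D2 than in D1 and 19.1% had their highest value in D2. The genes together took 0.108% of the counts of D1 and 0.171% of those of D2, beside 0.111% and 0.0858% in 3C and 0.0944% and 0.0887% in 5C. Their summed level in D1 was therefore close to that of 3C replicate 1, and D2 stood above all other libraries. Total counts ranged from 65916573 to 69245895 per library, a 1.05-fold range. Levels are given as CPM, a gene's count relative to the count total of its library, scaled by edgeR with TMM factors, and the smallest level read as present, 12 counts, was 0.173 to 0.182 CPM.

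**Figure D1:**
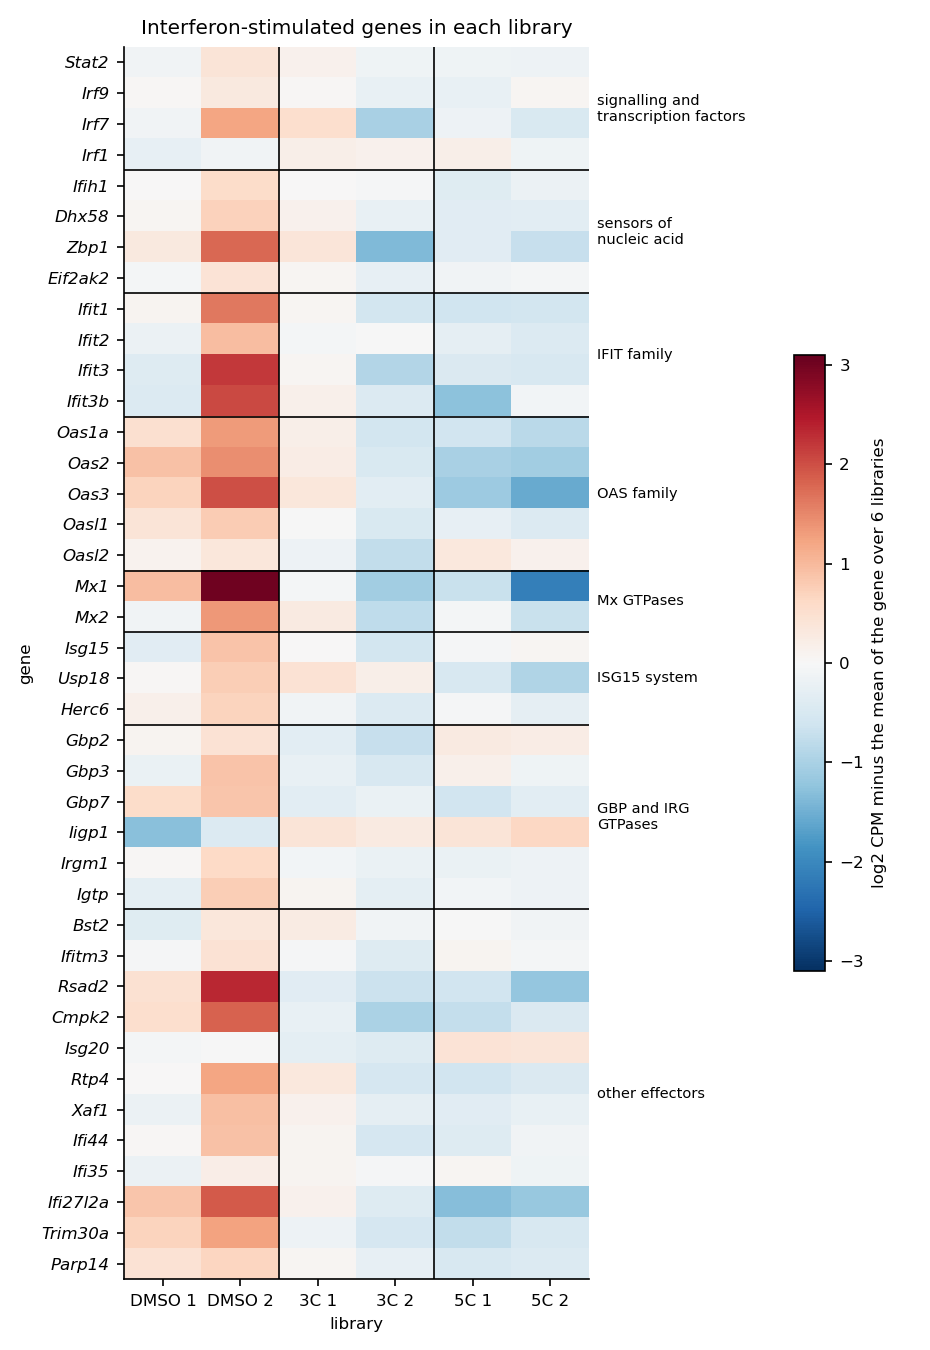
Each row is 1 of the 40 genes and each column 1 of the 6 libraries, and colour gives log2 CPM minus the mean of that gene over the 6 libraries. D2 is the highest library for 37 genes, and Irf1, Iigp1 and Isg20 are the exceptions.

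The promoters of these genes are shown because the genes differed together between the DMSO libraries, and the ISRE is the element through which type I interferon acts on them. RefSeq promoter sequences of GRCm38.p6 covered 30 of the 40 genes, and the 250 bases before each annotated start were searched. The ISRE was searched on both strands as GAAANNGAAA, and the GAS as TTCNNNGAA, which reads the same on both strands. An ISRE match was found for 15 of the 30 genes, or 50%, beside 3.46% of 27025 genes with such a window. A GAS match was found for 8 of the 30, or 26.7%, beside 8.13% of the same genes. The list was made of interferon-stimulated genes, so both excesses go with its choice and are no result of these libraries. The GAS match of Bst2 overlapped an ISRE match, and the matches of the other genes with both did not overlap. Below are 60-base stretches from 9 promoters, 5′ to 3′ in the direction of transcription, with the letters of each ISRE match in capitals. They were chosen because the gene was called in a comparison with DMSO (Oas1a, Oas3, Gbp7, Trim30a), differed between 5C and 3C (Gbp2), or was at least 2-fold higher in D2 (Ifit1, Ifit3, Isg15, Rsad2, and Oas3 again).
Ifit1: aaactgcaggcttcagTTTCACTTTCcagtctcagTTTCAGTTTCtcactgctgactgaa
Ifit3: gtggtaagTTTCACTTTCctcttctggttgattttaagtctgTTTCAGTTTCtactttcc
Isg15: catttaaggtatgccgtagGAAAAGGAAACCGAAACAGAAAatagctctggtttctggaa
Rsad2: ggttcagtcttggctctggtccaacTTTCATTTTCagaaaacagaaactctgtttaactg
Oas1a: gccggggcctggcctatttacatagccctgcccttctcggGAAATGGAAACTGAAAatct
Oas3: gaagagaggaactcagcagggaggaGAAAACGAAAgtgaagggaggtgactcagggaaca
Gbp7: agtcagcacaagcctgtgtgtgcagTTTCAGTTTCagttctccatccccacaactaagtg
Gbp2: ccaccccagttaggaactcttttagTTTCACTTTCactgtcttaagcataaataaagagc
Trim30a: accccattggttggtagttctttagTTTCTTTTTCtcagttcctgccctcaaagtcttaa
On GRCm38.p6 these stretches are Ifit1 chr19:34640769-34640828 on the plus strand, Ifit3 chr19:34583365-34583424 on the plus strand, Isg15 chr4:156200856-156200915 on the minus strand, Rsad2 chr12:26456538-26456597 on the minus strand and Oas1a chr5:120907526-120907585 on the minus strand. The others are Oas3 chr5:120777700-120777759 on the minus strand, Gbp7 chr3:142530258-142530317 on the plus strand, Gbp2 chr3:142620579-142620638 on the plus strand and Trim30a chr7:104465195-104465254 on the minus strand. The corresponding stretch of Ifit3b was identical to that of Ifit3 in all 60 bases, and the 3 matches in Isg15 overlap one another, as do the 2 in Oas1a. Capitals in the form of the reverse complement, as in Ifit1 or Gbp7, mark matches on the other strand.

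Genes with and without a match both stood higher in D2. The median log2 ratio of D2 to D1 was 1.06 over the 15 genes with an ISRE match, 0.49 over the 15 without one and 0.96 over the 10 with no window. At least 2-fold higher in D2 were 8, 4 and 5 genes of these classes, so that the ratio reached 2-fold in genes of each class. These are descriptions of the letters in a 250-base window and no test of them was made. The 10 genes with no window were Dhx58, Zbp1, Oas2, Mx1, Mx2, Usp18, Iigp1, Rtp4, Ifi27l2a and Parp14.

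**Figure D2:**
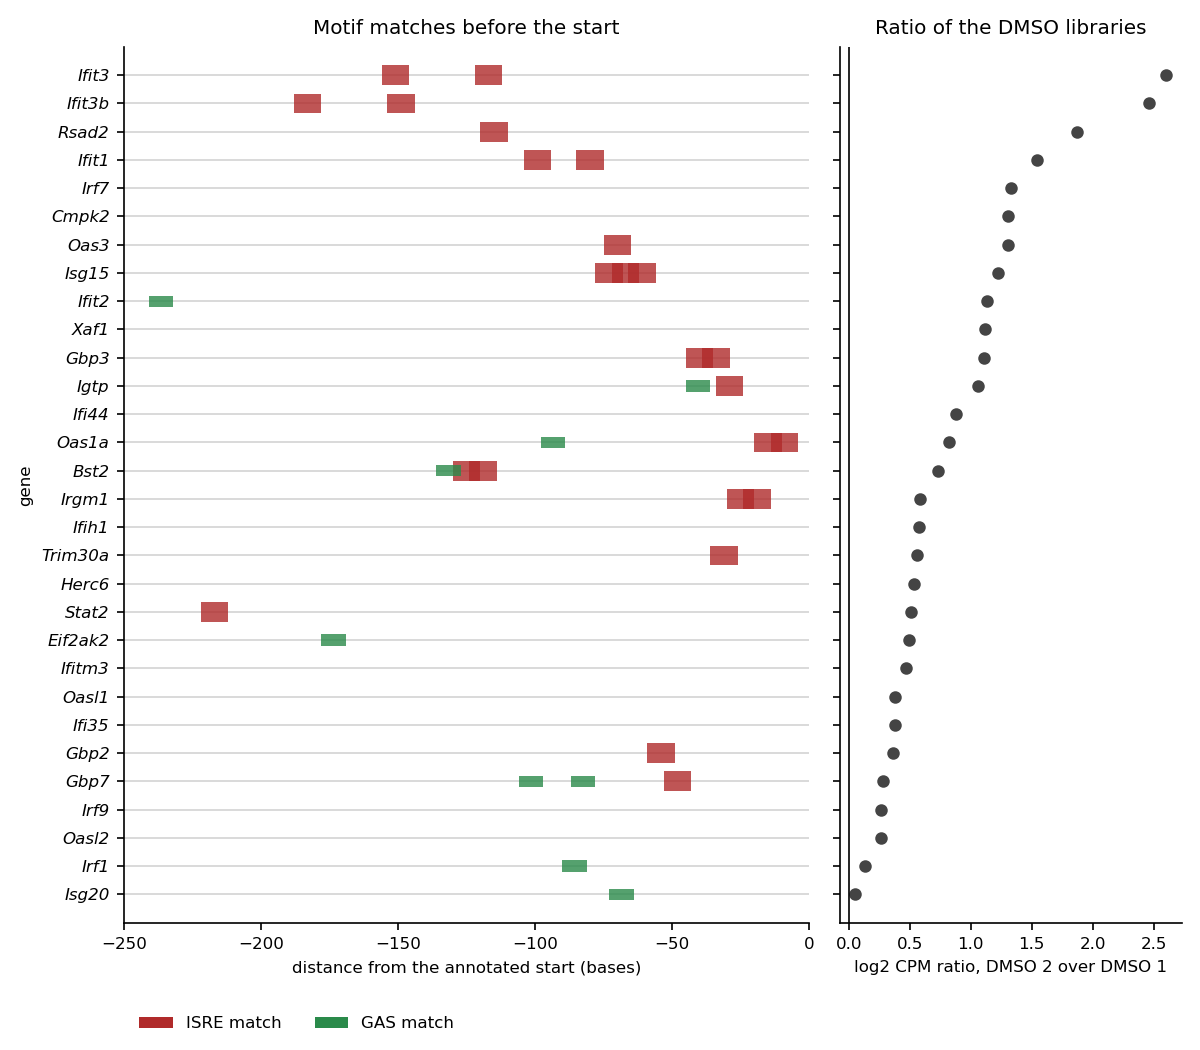
The left panel marks ISRE and GAS matches by distance in bases from the annotated start for the 30 genes with a window, and the right panel gives the log2 CPM ratio of D2 to D1 of the same genes, sorted by it. ISRE matches are found for 15 genes, among them the 4 with the largest ratios, Ifit3, Ifit3b, Rsad2 and Ifit1.

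The difference between the DMSO libraries was largest for the IFIT and Mx families and for Rsad2. Of the 40 genes, 17 were at least 2-fold higher in D2, beside 5.31% of all genes tested, and the median log2 ratio was 0.78, beside 0.0011 over all genes. Ifit3, whose product binds other IFIT proteins in an antiviral complex, had the largest ratio, 6.09-fold, followed by Ifit3b (5.53-fold), Mx1 (4.15-fold) and Rsad2 (3.66-fold). At the other end, Isg20, an exonuclease that degrades RNA, was 1.04-fold higher, Irf1 1.097-fold and Parp14 1.17-fold. With 1 library on each side no p can be given. In the deposited FPKM values, 38 of the 40 genes were higher in D2, and Oasl2 and Isg20 were not.

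The 3C replicates differed in the other direction by less, and the 5C replicates showed no common direction. In 3C, 38 of the 40 genes were higher in replicate 1, beside 49% of all genes tested, with a median log2 ratio of replicate 2 to replicate 1 of -0.38. None was at least 2-fold higher in 3C replicate 2, beside 5.75% of all genes, and 4 were at least 2-fold lower there (Irf7, Zbp1, Mx1 and Mx2), beside 5.5%. In 5C, 17 of the 40 genes were higher in replicate 2, the median log2 ratio was -0.045, and Ifit3b was at least 2-fold higher in replicate 2, beside 5.61% of all genes, and Mx1 at least 2-fold lower, beside 5.4%. Relative to D1, the median log2 ratio of the 40 genes was 0.013 in 3C replicate 1, -0.52 in 3C replicate 2, -0.24 in 5C replicate 1 and -0.22 in 5C replicate 2, while that of all genes lay between -0.0015 and 0.0082 in these libraries. Against D2, 37 genes were lower in all 4 cocktail libraries.

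**Figure D3:**
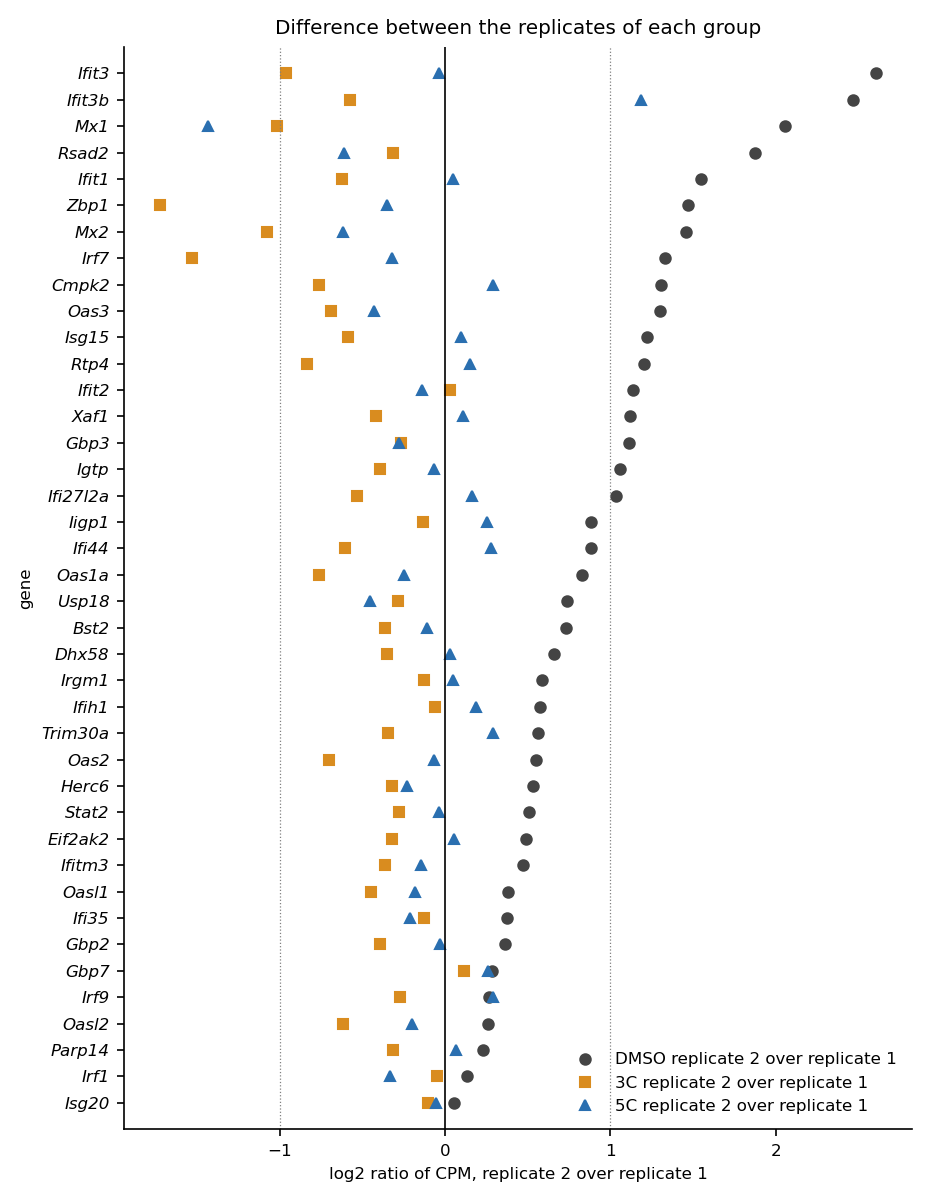
Points give the log2 ratio of CPM of replicate 2 to replicate 1 of DMSO (circles), 3C (squares) and 5C (triangles) for the 40 genes, sorted by the DMSO ratio, with dotted lines at 2-fold. All 40 circles lie above 0, 17 of them beyond 2-fold, whereas 38 squares lie below 0 and the triangles lie on both sides.

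In 5C, antiviral enzymes of the OAS family, Mx1 and 6 further genes were called lower than in DMSO and 1 GTPase gene higher. Calls rest on edgeR's quasi-likelihood test, and they need both a Benjamini-Hochberg adjusted p under 0.05 over all genes tested and an absolute log2 fold change above 1. By this rule 10 of the 40 genes were lower in 5C (Oas1a, Oas2, Oas3, Mx1, Usp18, Gbp7, Cmpk2, Ifi27l2a, Trim30a and Parp14), beside 4.42% of all genes tested. Iigp1 was called higher, beside 7.3% of all genes. The median log2 fold change of the 40 genes was -0.82, with 36 of them below 0, beside a median of 0.0041 over all genes. The 5C libraries lay below both DMSO libraries for 25 of the 40 genes, beside 30.7% of all genes. At an unadjusted p under 0.05, 19 of the 40 were lower and 2 higher, beside 18.1% and 20% of all genes tested. DESeq2 called 14 lower and 1 higher, beside 4.48% and 7.21% of the genes it tested.

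In 3C the same direction was seen with fewer calls. Lower were Oas2, Mx1, Cmpk2 and Trim30a, 4 of 40 beside 3.62% of all genes tested, and Iigp1 was called higher, beside 5.83%. The median log2 fold change was -0.71, beside 0.0088 over all genes, and the 3C libraries lay below both DMSO libraries for 19 of the 40 genes, beside 30.7% of all genes. At an unadjusted p under 0.05, 17 of the 40 were lower and 2 higher, beside 17.1% and 17.5% of all genes tested, and DESeq2 called 8 lower and 1 higher, beside 3.8% and 6.08%. The comparisons of 5C and of 3C share D1 and D2, so that the level of D2 enters each of these values. All 4 cocktail libraries lay below both DMSO libraries for 14 genes, beside 20.8% of all genes.

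Much of the size of these differences, and part of the calls, depended on which DMSO library was used. Without D2, 9 genes were called lower in 5C, beside 3.61% of 20368 genes then tested, and the median log2 fold change was -0.22. Of the 10 genes above, 8 were among them, Parp14 and Usp18 were not, and Rsad2 was added. Without D1, 22 genes were called lower in 5C, beside 3.94% of 20238 genes, and the median was -1.15. For 3C, 1 gene (Trim30a) was called lower without D2, beside 2.98%, with a median of -0.15, and 17 were called lower without D1, beside 3.19%, with a median of -1.01. Iigp1 was called higher in both cocktails without D2 and in neither without D1. In these fits the lone library of a group is assumed to vary like those of the other groups.

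Calls also changed when a cocktail library was left out. Oas1a, Oas3, Mx1, Cmpk2 and Ifi27l2a were no longer called in 5C when either 5C library was left out, Parp14 was lost without 5C replicate 1 and Usp18 without 5C replicate 2. Without replicate 1 the log2 fold changes were -1.79 for Oas1a, -3.04 for Oas3, -4.44 for Mx1, -1.77 for Cmpk2 and -2.64 for Ifi27l2a. Without replicate 2 they were -1.55, -2.61, -3.01, -2.06 and -2.80 in the same order. In all, 5 genes were called lower in 5C without replicate 1, Oasl1 now among them, beside 3.7% of all genes then tested, and 4 without replicate 2, beside 3.83%. In 3C, Mx1, Cmpk2 and the higher call of Iigp1 were lost without either 3C library, and Oas2 without replicate 2, at -0.98. Without replicates 1 and 2, the 3C values were -3.40 and -2.38 for Mx1, -2.30 and -1.55 for Cmpk2 and 1.06 and 1.19 for Iigp1. Called lower in 3C were 6 genes without replicate 1, beside 2.88%, and 2 without replicate 2, beside 3.05%. Oas2 and Trim30a in 5C and Trim30a in 3C were called lower under all 12 alternatives run.

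**Figure D4:**
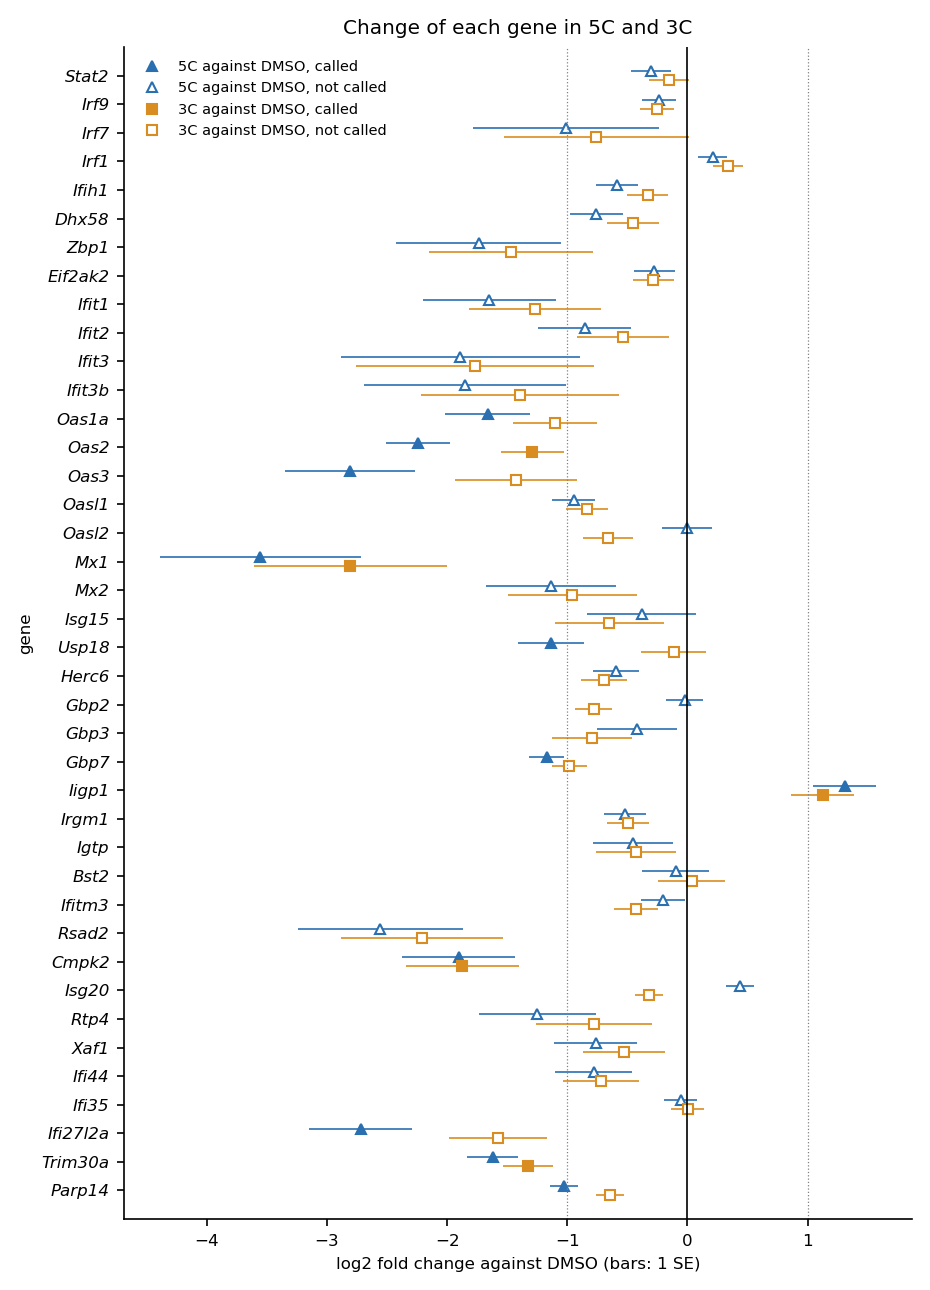
Points give the log2 fold change against DMSO in 5C (triangles) and 3C (squares) with bars of 1 SE, filled where the gene was called, and dotted lines mark 2-fold. Most points lie below 0, the 10 filled triangles below the lower dotted line include Oas1a, Oas2, Oas3 and Mx1, and Iigp1 lies above the upper dotted line in both cocktails.

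The OAS family makes the second messenger that activates RNase L when double-stranded RNA is present, except for Oasl1, which lacks this activity, and its genes lie on chromosome 5. Oas2 (chromosome 5, 120868398 to 120887933, GRCm39) was at 21.1 CPM in D1, 30.9 CPM in D2, 13.2 and 8.097 CPM in 3C and 5.62 and 5.37 CPM in 5C. The 3 groups did not overlap, with DMSO highest and 5C lowest. Its log2 fold change was -2.24 (SE 0.27, adjusted p = 0.000572) in 5C and -1.29 (SE 0.26, adjusted p = 0.00888) in 3C. Oas3 (chromosome 5, 120891163 to 120915729) was at 14.4 CPM in D1, 35.5 CPM in D2, 11.5 and 7.103 CPM in 3C and 4.08 and 3.03 CPM in 5C. It followed the same order of groups without overlap, fell in 5C by 2.81 on the log2 scale (SE 0.54, adjusted p = 0.0183) and was not called in 3C, at -1.43 (SE 0.51, adjusted p = 0.121). Oas1a (chromosome 5, 121031070 to 121046449) was at 17.5 CPM in D1, 30.97 CPM in D2, 14.2 and 8.38 CPM in 3C and 8.304 and 6.99 CPM in 5C. Here too the groups were ordered DMSO, 3C, 5C without overlap, with 3C replicate 2 close to 5C replicate 1, and the log2 fold change was -1.66 (SE 0.35, adjusted p = 0.0162) in 5C. Of its 50-base words, 23% also occurred in other genes, mostly Oas1g, so its counts are uncertain.

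The OAS-like genes were not called with all libraries. Oasl1, a regulator of Irf7 translation, was at 25.5 CPM in D1, 33.2 CPM in D2, 18.997 and 13.9 CPM in 3C and 16.2 and 14.3 CPM in 5C. Both cocktails lay below DMSO without overlap, and the log2 fold change of -0.95 (SE 0.18, adjusted p = 0.00374) in 5C stayed short of 2-fold. Oasl2 was at 58.5 CPM in D1, 70.1 CPM in D2, 49.1 and 32.1 CPM in 3C and 68.7 and 59.9 CPM in 5C. Its 5C libraries lay between the DMSO libraries while 3C was lowest, and the log2 fold change was 0.00030 in 5C (95% interval -0.51 to 0.51) and -0.66 in 3C (adjusted p = 0.0725).

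Mx1 encodes a dynamin-like GTPase that blocks influenza viruses, and many inbred strains carry a defective copy. Mx1 (chromosome 16, 97248235 to 97264107) was at 2.01 CPM in D1, 8.35 CPM in D2, 0.991 and 0.4898 CPM in 3C and 0.641 and 0.237 CPM in 5C. D2 was 4.15-fold above D1, and both cocktails lay below both DMSO libraries. It fell by 3.55 on the log2 scale in 5C (SE 0.84, adjusted p = 0.0203) and by 2.80 in 3C (SE 0.80, adjusted p = 0.0467). Without D2 the values were -2.19 in 5C (adjusted p = 0.0482) and -1.44 in 3C (adjusted p = 0.185). Mx2 was at 1.93 CPM in D1, 5.28 CPM in D2, 2.52 and 1.196 CPM in 3C and 1.98 and 1.29 CPM in 5C. The cocktail libraries lay on both sides of D1 and below D2, and it was not called, with log2 fold changes of -1.14 in 5C and -0.96 in 3C.

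The IFIT genes, which lie together on chromosome 19 and whose products bind foreign RNA or one another, showed the largest gap between D1 and D2 and no call by edgeR. At an unadjusted p under 0.05, 1 of the 4 was lower in 5C and 0 in 3C, beside 18.1% and 17.1% of all genes. DESeq2 called 2 lower in 5C and 0 in 3C, beside 4.48% and 3.8% of the genes it tested. Ifit1, which recognises RNA without the normal cap methylation, was at 9.55 CPM in D1, 27.9 CPM in D2, 9.42 and 6.12 CPM in 3C and 5.87 and 6.07 CPM in 5C. D2 stood apart, and D1 and 3C replicate 1 were nearly equal. The log2 fold change was -1.65 (SE 0.55, adjusted p = 0.0946) in 5C and -1.27 (SE 0.55, adjusted p = 0.186) in 3C. Ifit2 was at 28.1 CPM in D1, 61.7 CPM in D2, 30.5 and 31.2 CPM in 3C and 26.02 and 23.6 CPM in 5C. Again D2 was the library set apart, and the log2 fold change of -0.85 in 5C had an adjusted p of 0.195. Ifit3 was at 4.87 CPM in D1, 29.7 CPM in D2, 6.69 and 3.43 CPM in 3C and 4.71 and 4.597 CPM in 5C. The 5 libraries other than D2 lay between 3.43 and 6.69 CPM, and the log2 fold change in 5C was -1.89 with all libraries, -0.067 without D2 and -2.67 without D1. Ifit3 and Ifit3b share reads, since 32.9% and 48% of their 50-base words occur in other genes, mostly in each other, so the 2 cannot be separated with certainty. With all libraries edgeR called none of the IFIT genes in 5C, and the 2 that DESeq2 called lower were Ifit1 and Ifit3b. Their 5C log2 fold changes, with those of Ifit2 and Ifit3, ran from -2.67 to -1.31 without D1. Without D2 they ran from -0.68 to -0.067.

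Among the 4 regulators of the response edgeR called 0 genes. At an unadjusted p under 0.05, 0 were lower or higher in 5C, beside 18.1% and 20% of all genes. In 3C 1 was higher and 0 lower, beside 17.5% and 17.1%, and DESeq2 called 0. Stat2, which carries the signal of type I interferon with IRF9, was at 61.02 CPM in D1, 86.7 CPM in D2, 72.8 and 60.05 CPM in 3C and 60.6 and 59.2 CPM in 5C. D2 was highest, and the 3C libraries lay on both sides of D1. Its log2 fold change was -0.30 in 5C (95% interval -0.71 to 0.10) and -0.15 in 3C (-0.56 to 0.25). Irf9, the DNA-binding partner of STAT2, was at 35.9 CPM in D1, 43.1 CPM in D2, 36.3 and 29.996 CPM in 3C and 30.2 and 36.9 CPM in 5C. The groups overlapped, with log2 fold changes of -0.24 and -0.25 in 5C and 3C. Its exons overlap those of Rnf31 on the same strand, so reads there cannot be assigned to one gene with certainty. Irf1, a factor that both interferon types induce, was at 25.8 CPM in D1, 28.3 CPM in D2, 34.8 and 33.6 CPM in 3C and 34.9 and 27.7 CPM in 5C. It was 1 of 3 genes whose highest library was not D2, and its log2 fold change was 0.21 in 5C and 0.34 in 3C (adjusted p = 0.0795). Irf7, which amplifies type I interferon production, was named after its values were seen because its replicates differed most among the regulators. It was at 23.6 CPM in D1, 59.5 CPM in D2, 36.4 and 12.6 CPM in 3C and 22.9 and 18.3 CPM in 5C. The replicates of DMSO and of 3C each differed by more than 2-fold, and the log2 fold changes of -1.01 in 5C and -0.76 in 3C had an SE of 0.77 and 0.77.

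The sensors of nucleic acid had lower values in 5C than in DMSO that stayed short of a call by edgeR. Of the 4, 3 were lower at an unadjusted p under 0.05, beside 18.1% of all genes. DESeq2 called 1 lower, beside 4.48% of the genes it tested. Ifih1, the sensor of long double-stranded RNA also called MDA5, was at 39.4 CPM in D1, 58.7 CPM in D2, 39.8 and 38.1 CPM in 3C and 30.6 and 34.8 CPM in 5C. The 5C libraries were the lowest and did not overlap the DMSO libraries, with a log2 fold change of -0.59 (SE 0.17, adjusted p = 0.0417). Dhx58, a relative that modulates this sensor, was at 12.6 CPM in D1, 19.98 CPM in D2, 13.4 and 10.5 CPM in 3C and 9.54 and 9.74 CPM in 5C. Its 5C libraries were also the lowest, at -0.76 (SE 0.22, adjusted p = 0.0295). Eif2ak2, the kinase PKR that stops translation in the presence of double-stranded RNA, was at 34.6 CPM in D1, 48.7 CPM in D2, 38.04 and 30.4 CPM in 3C and 33.8 and 35.1 CPM in 5C. D2 was highest and the 5C libraries fell on both sides of D1, with a log2 fold change of -0.27 in 5C (adjusted p = 0.281). Zbp1, a sensor of nucleic acid in the Z form that can start necroptosis, ranged from 1.08 to 9.44 CPM and was not called by edgeR. DESeq2 called Zbp1 lower in both cocktails.

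The ISG15 system consists of a ubiquitin-like protein, the protease that removes it and ligases that attach it. Usp18, the protease, which also damps signalling at the type I receptor, was at 21.9 CPM in D1, 36.4 CPM in D2, 29.5 and 24.3 CPM in 3C and 15.4 and 11.2 CPM in 5C. The 5C libraries were the lowest, and the 3C libraries lay between D1 and D2. Usp18 (chromosome 6, 121222848 to 121247877) fell in 5C with a log2 fold change of -1.13 (SE 0.27, adjusted p = 0.0231) and not in 3C, where it was -0.12 (SE 0.27, adjusted p = 0.823). The difference between 5C and 3C was -1.02 (SE 0.27, adjusted p = 0.0624) and was not called by edgeR, and DESeq2 called it. Isg15 itself was at 14.4 CPM in D1, 33.5 CPM in D2, 18.3 and 12.2 CPM in 3C and 17.7 and 18.97 CPM in 5C. D2 was highest and the other 5 libraries lay between 12.2 and 19.0 CPM, so that the log2 fold change in 5C was -0.38 with a 95% interval of -1.58 to 0.82. Herc6, the mouse ligase for ISG15, was at 17.7 CPM in D1, 25.6 CPM in D2, 14.9 and 11.9 CPM in 3C and 15.5 and 13.2 CPM in 5C. Both cocktails lay below DMSO, at -0.59 (SE 0.19, adjusted p = 0.047) in 5C and -0.69 (SE 0.19, adjusted p = 0.0284) in 3C, short of 2-fold. Of its 50-base words, 19.6% occurred also in other genes, mostly Gm45193, which overlaps it.

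The GTPases of the GBP and IRG families, which attack the vacuoles of intracellular pathogens and respond mainly to interferon gamma, included the 1 gene called higher. Gbp7 (chromosome 3, 142236044 to 142255910) was at 22.6 CPM in D1, 27.5 CPM in D2, 12.2 and 13.2 CPM in 3C and 10.1 and 12.1 CPM in 5C. The cocktail libraries lay below both DMSO libraries, with log2 fold changes of -1.17 (SE 0.15, adjusted p = 0.000312) in 5C and -0.98 (SE 0.14, adjusted p = 0.00106) in 3C, and the second value stayed just short of 2-fold. It shares 12.4% of its words, mostly with Gm43802, which overlaps it. Iigp1 (chromosome 18, 60506680 to 60525706) was at 3.94 CPM in D1, 7.26 CPM in D2, 12.8 and 11.7 CPM in 3C and 12.6 and 15.1 CPM in 5C. It was the 1 gene of the 40 called higher. D1 was lowest and all cocktail libraries lay above D2. Its log2 fold change was 1.31 (SE 0.26, adjusted p = 0.0059) in 5C and 1.13 (SE 0.26, adjusted p = 0.0139) in 3C. Without D1 these became 0.93 and 0.75, short of 2-fold. Gbp2 was at 31.03 CPM in D1, 39.9 CPM in D2, 23.5 and 17.9 CPM in 3C and 35.3 and 34.6 CPM in 5C. Its 3C libraries were the lowest and its 5C libraries lay between D1 and D2, so that it differed between 5C and 3C, by 0.76 (SE 0.16, adjusted p = 0.0136). Irgm1, a regulator of other IRG proteins, was at 42.1 CPM in D1, 63.2 CPM in D2, 38.9 and 35.6 CPM in 3C and 36.1 and 37.3 CPM in 5C. D2 stood above the other libraries, and all cocktail libraries lay below D1 as well. The log2 fold change was -0.52 in 5C (adjusted p = 0.0626) and -0.497 in 3C (adjusted p = 0.0814). Gbp3 and Igtp were about 2-fold higher in D2 (2.16-fold and 2.08-fold) and were not called. Exons of Igtp overlap those of Irgm2 on the same strand.

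Of the 12 other effectors, 4 were called lower in 5C and 2 of these also in 3C, beside 4.42% and 3.62% of all genes. The 5C libraries lay below both DMSO libraries for 8 of the 12 and the 3C libraries for 7, beside 30.7% of all genes in each. Ifi27l2a (chromosome 12, 103399975 to 103409950), a small mitochondrial protein strongly induced by type I interferon, was at 51.8 CPM in D1, 106 CPM in D2, 31.2 and 21.6 CPM in 3C and 11.3 and 12.7 CPM in 5C. The groups did not overlap and were ordered DMSO, 3C, 5C. Its log2 fold change was -2.72 (SE 0.43, adjusted p = 0.0121) in 5C and -1.58 (SE 0.41, adjusted p = 0.059) in 3C. Its exons overlap those of Ifi27 on the other strand, and whether strand was used in counting is not given in the sources used here, so the 2 genes cannot be told apart where they overlap. Trim30a (chromosome 7, 104058232 to 104114407), a restraint on inflammatory signalling, was at 41.6 CPM in D1, 61.4 CPM in D2, 22.96 and 18.1 CPM in 3C and 15.1 and 18.4 CPM in 5C. It fell in both cocktails, whose libraries all lay below D1, at -1.62 (SE 0.21, adjusted p = 0.0011) in 5C and -1.33 (SE 0.21, adjusted p = 0.00334) in 3C. It shares 26% of its words with other genes, mostly Gm42553, and is uncertain for this reason.

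Cmpk2, a mitochondrial nucleotide kinase whose gene lies beside Rsad2 (chromosome 12, 26519203 to 26529836), was at 8.65 CPM in D1, 21.4 CPM in D2, 5.15 and 3.04 CPM in 3C and 3.61 and 4.42 CPM in 5C. All 4 cocktail libraries lay below D1, and it fell by 1.90 on the log2 scale in 5C (SE 0.47, adjusted p = 0.0269) and by 1.88 in 3C (SE 0.47, adjusted p = 0.0318). Rsad2, the antiviral radical SAM enzyme viperin, was singled out after its values were seen, as the neighbour of Cmpk2. It was at 7.63 CPM in D1, 27.9 CPM in D2, 4.26 and 3.43 CPM in 3C and 3.64 and 2.39 CPM in 5C. The cocktail libraries lay below both DMSO libraries, but edgeR with all libraries did not call Rsad2. Its log2 fold change was -2.56 (SE 0.69, adjusted p = 0.0526) in 5C and -2.21 (SE 0.67, adjusted p = 0.085) in 3C. DESeq2 with all libraries called Rsad2 lower in both cocktails. In 5C the edgeR value was -3.21 without D1 and -1.34 without D2. Parp14 (chromosome 16, 35653231 to 35692003), an ADP-ribosyltransferase, was at 67.4 CPM in D1, 79.1 CPM in D2, 52.01 and 41.8 CPM in 3C and 35.1 and 36.8 CPM in 5C. The groups did not overlap and were ordered DMSO, 3C, 5C, and the log2 fold change was -1.03 (SE 0.12, adjusted p = 0.000207) in 5C and -0.64 (SE 0.12, adjusted p = 0.00374) in 3C. Exons of Parp14 overlap those of Gm49730 on the same strand, so reads there cannot be assigned to a single gene with certainty.

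Ifitm3 and Bst2, the effectors with the highest mean levels over the libraries, were not called. Ifitm3, which blocks viral entry at endosomes, was at 157 CPM in D1, 217 CPM in D2, 156 and 121 CPM in 3C and 169.998 and 154 CPM in 5C. D2 was highest, the 5C libraries lay on both sides of D1, and the log2 fold change in 5C was -0.21 with a 95% interval of -0.66 to 0.24. Bst2, or tetherin, which holds budding virus at the cell surface, was at 86.5 CPM in D1, 144 CPM in D2, 132 and 103 CPM in 3C and 111 and 103 CPM in 5C. D1 was the lowest library, and the log2 fold change was -0.10 in 5C (95% interval -0.83 to 0.64) and 0.034 in 3C. Rtp4, Xaf1 and Ifi44 were 2.298-fold, 2.17-fold and 1.84-fold higher in D2 and were not called, and Ifi35 had log2 fold changes of -0.057 in 5C and 0.0011 in 3C.

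Salidroside and forskolin set 5C apart from 3C, and edgeR called 0 of the 40 genes between these cocktails, beside 0.852% of all genes tested called lower and 2.16% called higher. At an unadjusted p under 0.05, 3 genes were higher and 5 lower, beside 13.3% and 11.5% of all genes tested. DESeq2 called 0 higher and 1 gene, Usp18, lower, beside 2.81% and 1.2%. The median log2 difference was -0.17, beside -0.011 over all genes. With no limit on the fold change, 2 genes were higher in 5C, Gbp2 and Isg20, beside 7.33% of all genes tested. Without 3C replicate 1 the median was 0.027 and Oasl2 was called higher in 5C, and without 3C replicate 2 Oas2 was called lower. Isg20, described for this difference after its values were seen, was at 13.7 CPM in D1, 14.3 CPM in D2, 11.6 and 10.8 CPM in 3C and 19.4 and 18.6 CPM in 5C. The 5C libraries lay above DMSO and the 3C libraries below it, and the difference was 0.76 (SE 0.12, adjusted p = 0.00365). For Oas3 and Ifi27l2a, with differences of -1.39 and -1.14, the 95% intervals of -2.75 to -0.017 and -2.25 to -0.026 are wide, although 5C lay below 3C in each library pair.

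Levels can be set side by side between genes only per length, in FPKM. By the mean over the 6 libraries, Ifitm3 was first at 216 FPKM, followed by Bst2 at 129 FPKM, Ifi27l2a at 75.8 FPKM and Isg15 at 24.4 FPKM. Mx1 was last at 0.76 FPKM, after Mx2 at 1.03 FPKM and Ifit3b at 1.08 FPKM. Neighbours in this order were often not separate, since Oasl2 (11.7 to 22.2 FPKM), Ifi35 (15.4 to 19.8 FPKM) and Irgm1 (14.5 to 24.5 FPKM) overlapped over the libraries. Ifi27l2a changed its place most plainly, with 105 and 201 FPKM in DMSO, above Bst2 in those libraries (102 and 159 FPKM), and 22.2 and 23.6 FPKM in 5C, beside 22.9 and 23.3 FPKM for Isg15.

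The ligands that start the response were not detected at this depth. All 20 interferon genes looked at, 1 beta, 14 alpha and alpha-like genes, Ifnk, Ifne, Ifng, Ifnl2 and Ifnl3, were at 0 in every library except Ifnb1, at 0.029 CPM in 5C replicate 1, below the floor. Their low level says only that no transcript was counted in these libraries at day 16. The receptor genes were expressed in all libraries, and D1 and D2 differed little in them. Ifnar1 was at 118 CPM in D1, 117 CPM in D2, 105 and 105 CPM in 3C and 110.2 and 116 CPM in 5C. The 3C libraries were slightly below the others. Of the 6 receptor genes edgeR and DESeq2 called 0 in 5C and 0 in 3C. At an unadjusted p under 0.05, 1 was higher and 2 lower in 5C, beside 20% and 18.1% of all genes. In 3C 2 were higher and 2 lower, beside 17.5% and 17.1%.

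Receptors for interferon gamma and lambda and the second chain for type I interferon varied more. Ifnar2 was at 73.9 CPM in D1, 73.8 CPM in D2, 67.9 and 70.6 CPM in 3C and 79.7 and 85.3 CPM in 5C. Its 5C libraries were the highest, and it differed between 5C and 3C by 0.25 (SE 0.069, adjusted p = 0.0445). Ifngr1 was at 208 CPM in D1, 233 CPM in D2, 252 and 271 CPM in 3C and 139 and 141 CPM in 5C. The 5C libraries were lowest and the 3C libraries highest without overlap, at -0.66 (SE 0.078, adjusted p = 0.000229) in 5C and 0.24 (SE 0.077, adjusted p = 0.0487) in 3C. Il10rb, a chain of the interferon lambda and interleukin 10 receptors, was at 133 CPM in D1, 143 CPM in D2, 65.9 and 76.1 CPM in 3C and 64.9 and 73.4 CPM in 5C. Both cocktails were about 2-fold below DMSO, at -0.998 (SE 0.093, adjusted p = 5.54e-05) and -0.96 (SE 0.093, adjusted p = 9.2e-05), just short of the limit, and D1 and D2 were close. Ifngr2 and Ifnlr1 had log2 fold changes of -0.10 and 0.22 in 5C and -0.16 and 0.53 in 3C.

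Of 9 genes of receptor signalling, Ptpn6, a phosphatase of blood cells that limits signalling, was called lower in 5C, at -1.51 (SE 0.10, adjusted p = 8.32e-06), beside 4.42% of all genes. In 3C neither edgeR nor DESeq2 called any. At an unadjusted p under 0.05, 3 were lower and 0 higher in 3C, beside 17.1% and 17.5% of all genes. Tyk2 was at 55.5 CPM in D1, 56.3 CPM in D2, 46.8 and 45.1 CPM in 3C and 32.98 and 32.2 CPM in 5C. D1 and D2 were nearly equal, and 5C was lowest, at -0.78 (SE 0.077, adjusted p = 7.87e-05). Jak1, Jak2 and Irf3 had log2 fold changes of -0.16, 0.033 and 0.14 in 5C and 0.0040, 0.046 and -0.021 in 3C, none with an adjusted p under 0.05.

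Of 13 genes of nucleic acid sensing and interferon induction, 2 were called lower in 5C and 3 in 3C. Over all genes tested these shares were 4.42% and 3.62%. Tlr7, the endosomal receptor for single-stranded RNA, was at 127 CPM in D1, 125 CPM in D2, 44.6 and 44.2 CPM in 3C and 26.6 and 32.4 CPM in 5C. D1 and D2 were nearly equal, and the log2 fold change was -2.09 (SE 0.10, adjusted p = 1.06e-06) in 5C and -1.50 (SE 0.10, adjusted p = 8.86e-06) in 3C. Unc93b1, the chaperone that brings such receptors to endosomes, was at 234 CPM in D1, 243 CPM in D2, 115 and 115 CPM in 3C and 92.2 and 94.98 CPM in 5C. It followed the same order without overlap, at -1.35 in 5C (adjusted p = 1.18e-06) and -1.05 in 3C (adjusted p = 7.67e-06). Cgas, the cytosolic DNA sensor, was called lower in 3C, at -1.12 (SE 0.33, adjusted p = 0.0345). Of 8 interferon regulatory factors outside the 40 genes, Irf8 and Irf5, which macrophages and dendritic cells use, were called lower in 5C, at -1.69 (adjusted p = 7.64e-06) and -1.06 (adjusted p = 0.000165), and Irf8 in 3C, at -1.35 (adjusted p = 3.73e-05). Over all genes tested the shares called lower were again 4.42% in 5C and 3.62% in 3C.

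A further list of interferon-stimulated genes gave a wider view. Of 91 such genes in the table, 90 were tested. In D2 83 were higher than in D1, 13 of them at least 2-fold, beside 49.3% and 5.31% of all genes. At least 2-fold lower in D2 were 2, and the median log2 ratio was 0.37. In 5C 23 were called lower and 0 higher, beside 4.42% and 7.3%. At an unadjusted p under 0.05, 53 were lower and 5 higher, beside 18.1% and 20%, and DESeq2 called 23 lower and 0 higher. In 3C 18 were called lower and 0 higher, beside 3.62% and 5.83%. At an unadjusted p under 0.05, 46 were lower and 6 higher, beside 17.1% and 17.5%, and DESeq2 called 23 lower and 1 higher. The medians of the log2 fold changes were -0.54 and -0.41. Of those called, the genes given here were chosen after their values were seen. Slfn5, of the Schlafen family, was at 77.5 CPM in D1, 128 CPM in D2, 42.8 and 32.4 CPM in 3C and 19.3 and 21.8 CPM in 5C. It fell in both cocktails without overlap, at -2.32 (SE 0.28, adjusted p = 0.00312) in 5C and -1.45 (SE 0.27, adjusted p = 0.0174) in 3C, and its relative Slfn2, called in both as well, had values of -1.61 and -1.11. Of the Ifi200 genes, which bind DNA, Ifi207 was at 91.2 CPM in D1, 118 CPM in D2, 42.4 and 33.4 CPM in 3C and 26.9 and 25.4 CPM in 5C. The groups did not overlap, and it fell with log2 fold changes of -2.0 (SE 0.15, adjusted p = 4.03e-05) in 5C and -1.47 (SE 0.15, adjusted p = 0.000242) in 3C. Cxcl10, the chemokine that attracts T cells to sites of interferon, was at 13.3 CPM in D1, 14.1 CPM in D2, 3.51 and 5.23 CPM in 3C and 5.55 and 7.18 CPM in 5C. D1 and D2 were close, and the log2 fold change was -1.11 (SE 0.22, adjusted p = 0.00532) in 5C and -1.65 (SE 0.23, adjusted p = 0.000715) in 3C.

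Marker genes of hepatocytes and of other cell types differed between the groups as well. Hepatocyte markers were present in all libraries, with Alb at 1350 and 1196 CPM in DMSO, 7253 and 7636 CPM in 3C and 6808 and 10681 CPM in 5C. Macrophage markers were also present and, in DMSO, high, with Lyz2 at 5992 and 6212 CPM in DMSO, 1785 and 1758 CPM in 3C and 1106 and 1143 CPM in 5C. Of 20 macrophage and Kupffer cell markers 19 were tested. Called lower were 16 in 5C and 16 in 3C, beside 4.42% and 3.62% of all genes. The chemokine receptor gene Cx3cr1 was called higher in each, at 0 and 0.061 CPM in DMSO, 2.52 and 5.13 CPM in 3C and 1.56 and 2.83 CPM in 5C. Cd14, a receptor for lipopolysaccharide, was above DMSO without passing the fold limit, at 0.60 in 5C (adjusted p = 0.000734) and 0.86 in 3C (adjusted p = 0.000112). The summed level of the markers was 14120 to 15543 CPM in DMSO, 4902 to 4937 CPM in 3C and 3439 to 3462 CPM in 5C, and Ccr2 was at or under 0.18 CPM in every library. All 7 hepatocyte markers were called higher in both cocktails, beside 7.3% of all genes in 5C and 5.83% in 3C. Macrophages are known to mount an interferon response, these values stand beside every decrease given above, and their part in the result was not tested. In bulk RNA, fewer cells of a type and less RNA per cell cannot be told apart.

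Between D1 and D2 these markers differed by less than the interferon-stimulated genes. The median log2 ratio of D2 to D1 was 0.16 over the 19 macrophage markers tested, 14 of which were higher in D2 and none at least 2-fold, and -0.12 over the 7 hepatocyte markers. Markers of plasmacytoid dendritic cells, known for making type I interferon, were near 0 where they are specific, with Siglech and Klk1 at 0 in all 6 libraries, and Tcf4 and Runx2, which other cells express, made up nearly all of the summed 51.4 to 73.2 CPM. Of 9 T and NK cell markers, Cd3e, Cd3g, Ncr1 and Gzmb were at 0 in all libraries and the sum was at most 0.71 CPM. The 4 B cell markers summed to at most 0.22 CPM, and the 6 neutrophil markers to 6.86 to 8.96 CPM in DMSO and 1.41 to 2.49 CPM in the cocktails, most of it Csf3r. The 6 markers of conventional dendritic cells summed to 12.04 to 15.8 CPM, nearly all of it Zbtb46.

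Markers of further cell types also moved with the cocktails. Of 8 endothelial markers 7 were tested, and 5 were called higher and 1, Lyve1, lower in 5C, while 3 were called higher and 1 lower in 3C. Their sum, of which Lyve1 made up most in DMSO, was 327 to 344 CPM in DMSO, 92.8 to 127 CPM in 3C and 158 to 242 CPM in 5C, with Clec4g at or under 0.06 CPM. Of 9 stellate cell and fibroblast markers, 5 were called higher in 5C, and 3 higher and 1 lower in 3C, with sums of 928 to 1037 CPM in DMSO, 1519 to 1665 CPM in 3C and 2102 to 2183 CPM in 5C. Of 6 cholangiocyte markers, 3 were called higher in 5C and 4 in 3C, with sums of 2886 to 3425 CPM in DMSO, 3446 to 3636 CPM in 3C and 2450 to 2701 CPM in 5C. The paper reports raised Des, Pdgfra and Pdgfrb in hepatocytes of CCl4-injured mice, so these stellate cell and fibroblast markers cannot be assigned to other cells here. The part of these lists in the results above was not tested either.

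**Figure D5:**
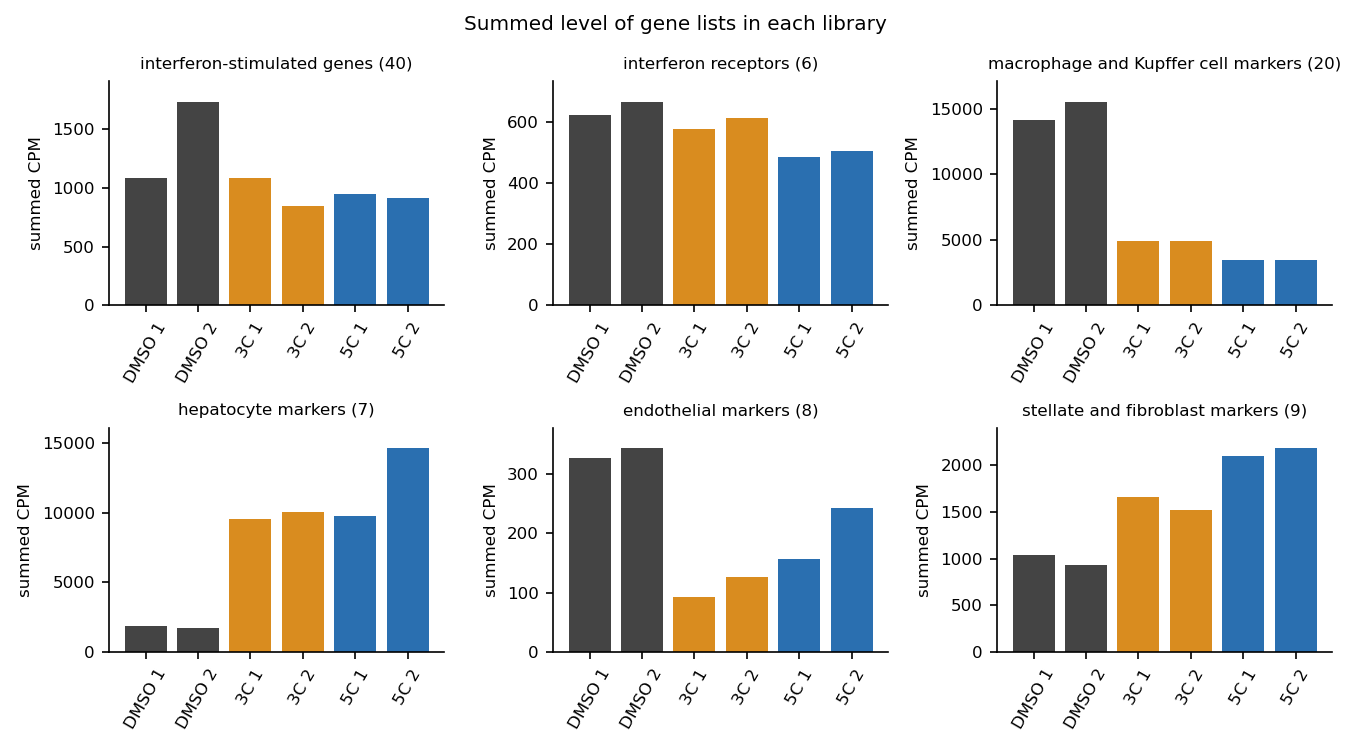
Bars give the summed CPM of 6 gene lists in each of the 6 libraries, with the number of genes in parentheses. The 40 interferon-stimulated genes are highest in D2, the macrophage and Kupffer cell markers are high in both DMSO libraries and lower in the cocktails, and the hepatocyte markers are highest in the cocktails.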

How the data were processed

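RNA-seq was made of 6 libraries of dHeps, 2 each for DMSO, 3C and 5C, grouped by their labels. The authors isolated RNA with the EasyPure kit, prepared libraries with the NEBNext Ultra kit, sequenced paired reads on a NovaSeq and mapped them to GRCm39, and the submitters' processing notes name featureCounts, Subread and DESeq2. The strand setting, the annotation and the versions of featureCounts and Subread are not given in the sources used here. The deposited count table holds whole numbers per gene, taken here as estimated counts because values of 4 and 8 were in excess among low values. 1 fragment was assumed to give 4 counts, so the floor of 3 fragments is 12 counts. The deposited FPKM table holds values per length and depth made by the authors, with the tool not given. In it the 40 genes were matched by ID.

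Genes were filtered with filterByExpr and scaled by TMM, and all 6 libraries were fitted together with edgeR's quasi-likelihood test (edgeR 4.0.16, R 4.3.3, robust), with 3 residual degrees of freedom and 19135 genes. The common biological coefficient of variation was 18.4%. SEs were derived from the log2 fold change and its F statistic, and intervals are at 95%. DESeq2 1.42.0, limma 3.58.1 on log2(FPKM + 1) and log2(FPKM + 0.1), and the settings of the closing section were alternatives. The procedure was tested on simulated data. Totals of 65916573 to 69245895 counts set the precision of single libraries, and intervals cover the spread between libraries only.

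The 40 genes, the pathway and marker lists and the motifs were chosen with earlier results of these data known. Values in every library were given for genes called in any comparison and for the 3 with the highest mean CPM in each role, and others by range and counts. Positions are from GENCODE M39 (GRCm39) and promoters from RefSeq (GRCm38.p6). Shared words are 50-base stretches of a gene's transcripts that also occur in another gene. A share of 10% or more was given with the gene and makes its counts uncertain. 1 gene of the receptor signalling list is not reported here.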

Additional observations from a re-analysis of the deposited data

Results flagged for a closer look

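For 16 of the genes looked at, the effects of 5C and of 3C against DMSO differed by the test of the difference itself, the comparison of 5C with 3C at an edgeR adjusted p under 0.05. Among the 40 interferon-stimulated genes these were Gbp2, with a log2 difference of 0.76 (SE 0.16, adjusted p = 0.0136), and Isg20, with 0.76 (SE 0.12, adjusted p = 0.00365). Both were higher in 5C than in 3C in every library pair. Relative to DMSO, the log2 fold change of Gbp2 was -0.023 with 5C and -0.78 with 3C, and that of Isg20 was 0.44 and -0.32.

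Among receptors and signalling genes, Ifnar2 was higher in 5C than in 3C by 0.25 (adjusted p = 0.0445). Lower in 5C were Ifngr1 at -0.90 (adjusted p = 0.000273), Tyk2 at -0.50 (adjusted p = 0.00376) and Ptpn6 at -0.60 (adjusted p = 0.00553). The sensing genes Tlr7 and Unc93b1 were also lower in 5C, at -0.59 (adjusted p = 0.0044) and -0.30 (adjusted p = 0.0153). The macrophage markers, summed, were lower in 5C (3439 to 3462 CPM) than in 3C (4902 to 4937 CPM), and their part in these differences was not tested.

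Of the further interferon-stimulated genes, Ifi209 differed by -1.35 (adjusted p = 0.0432), Ms4a4c by -1.49 (adjusted p = 0.0282) and Ly6a by -1.09 (adjusted p = 0.0157). Slfn4 had a fitted difference of -2.61 (adjusted p = 0.0179), but it was at or under the floor in 5C, so that this value depends on the prior count and is no bound. Smaller differences were those of Trim14 at -0.71, Slfn8 at -0.65, Ms4a6d at -0.55 and Slfn2 at -0.50, with adjusted p-values of 0.0412, 0.0492, 0.0202 and 0.0178.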

How the results depend on the processing

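With 1 library left out at a time, genes of the 40 called lower ranged from 4 to 22 in 5C and from 1 to 17 in 3C, those called higher from 0 to 1 in each, and the median log2 fold change from -1.15 to -0.22 and from -1.01 to -0.15. Between 5C and 3C, 0 to 1 were called lower and 0 to 1 higher, and the median ran from -0.32 to 0.027, reversing its sign without 3C replicate 1. Over all genes, calls ranged from 1923 to 2191 in 5C, 1535 to 1784 in 3C and 381 to 485 between 5C and 3C.

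Of the other settings, DESeq2 called 8 of the 40 lower in 3C and 1 lower between 5C and 3C, beside 3.8% and 1.2%. Keeping all genes with at least 1 count left 2 lower in 3C, with 1770 of all genes called in either direction. With no limit on the fold change, 9 were lower in 3C, 2 higher in 5C and 2 higher in 5C than in 3C, and 5485, 4689 and 2423 of all genes were called in 5C, in 3C and between them, against 2242, 1809 and 576. With limma on log2(FPKM + 1) these were 1228, 959 and 257, and 0 of the 40 were higher in 3C, and on log2(FPKM + 0.1) 1 was lower between 5C and 3C. On the scale of log2(FPKM + 1), 10 of the 40 were at least 2-fold higher in D2 and the median log2 ratio was 0.60. Why these counts differ was not tested, except that a pseudocount understates low genes. Dividing counts by 4, chosen after seeing the data, left the counts of the 40 as they were. For single genes, 920 values kept their side of the threshold under the settings that keep all libraries, 26 were newly called and 14 were lost.

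Groups share replicate numbers in the labels, and the correlation of deviations of same-numbered libraries over 19135 genes was -0.031 for DMSO and 3C, 0.00068 for DMSO and 5C and 0.016 for 3C and 5C. Over the 40 genes it was -0.55, -0.076 and 0.27. Not every pair was over 0.1, so the numbers were not read as a pairing. With the replicate block, 6 of the 40 were lower and 1 higher in 5C, and 2 were lower and 1 higher in 3C. Over all genes, 2125 and 1737 were then called in either direction. The calls lost were Oas3 (-2.79), Mx1 (-3.57), Usp18 (-1.13) and Cmpk2 (-1.85) in 5C, and Mx1 (-2.82) and Cmpk2 (-1.78) in 3C, with these log2 fold changes under the block.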
